A study of Mus musculus with 18 samples.

Results

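The skin of lncKO mice was compared with that of wild-type mice on 6 of the 18 arrays of a study of MIR205HG- and miR-205-knockout mice. The members were chosen by the labels alone. They are the 3 skin arrays labelled lncKO, numbered 4, 5 and 6, and the 3 skin arrays labelled wt, numbered 1, 2 and 3. The other skin group was 3 miR-205 KO arrays, numbered 7, 8 and 9, and pituitary was sampled from the same 3 genotypes with 3 arrays each. The labels gave C57BL/6 as the strain, female as the sex and 5-6 weeks as the age of every sample, with no treatment, and name no difference between groups other than genotype and tissue. The lncKO group was taken here as the MIR205HG knockout that the study's title names. The labels do not describe the deleted stretch and do not say whether miR-205 is still made from it. They also do not tie the 3 samples of a group to separate animals, and the spread that every p-value rests on may therefore be technical. The extraction text describes a frozen ear segment, and the same text stands beside the pituitary samples. No probe set for Mir205 or Mir205hg is in the table used here, so the loss of the targeted RNA was not checked.

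MIR205HG is the host transcript of miR-205, a microRNA that is abundant in stratified epithelia. In skin, miR-205 is known for its role in progenitor cells of the hair follicle, where it acts on negative regulators of the PI3K pathway. The host transcript has also been studied as an RNA with a role of its own, including in the anterior pituitary. Skin holds the layered keratinocytes of the epidermis, hair follicles that cycle between growth and rest, sebaceous glands, a collagen-rich dermis and fat, and the ear adds a plate of elastic cartilage and thin muscle.

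The mature miR-205-5p is shown because its seed, the stretch that pairs with target RNAs, defines the RNA made from this locus. It lies at chr1:193507503-193507524 on the minus strand (RefSeq, GRCm38.p6), and the capitals mark its seed, bases 2 to 8.
mmu-miR-205-5p: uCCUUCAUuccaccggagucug

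Keratin-associated proteins, the matrix proteins that cross-link keratin filaments in the hair shaft, had the largest share of lower calls in lncKO skin among the gene lists with at least 10 measured members. The 60 bases just before the start of 4 of them are shown because their values carry that result and because the letters TATAAA recur there (RefSeq, GRCm38.p6, all on the minus strand of the chromosome, written 5′ to 3′ along the gene). The capitals mark TATAAA. Krtap8-1 is at chr16:89487953-89488012, Krtap11-1 at chr16:89571184-89571243, Krtap1-5 at chr11:99581017-99581076 and Krtap5-1 at chr7:142297135-142297194.
Krtap8-1: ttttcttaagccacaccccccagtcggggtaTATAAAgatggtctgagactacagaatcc
Krtap11-1: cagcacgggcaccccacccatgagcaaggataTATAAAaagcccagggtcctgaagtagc
Krtap1-5: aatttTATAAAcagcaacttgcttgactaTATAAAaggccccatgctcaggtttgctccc
Krtap5-1: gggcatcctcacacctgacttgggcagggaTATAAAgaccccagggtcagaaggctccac

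Values are intensities, the brightness of a probe set on a linear scale, and are given in the order of the array numbers. They ran from 4 to 1243875, and between 22.8% and 25.3% of all 22206 probe sets of an array, named or not, lay at or below 16, where a fold change rests on the dim end of the scale. Differences are log2 fold changes of lncKO over wild type with their standard error (n = 3 against 3), from limma with Benjamini-Hochberg adjustment over 19572 named probe sets, and "rose" or "fell" means an adjusted p under 0.05. The keratinocyte markers Krt5 (64494 to 79896 on the 6 arrays) and Krt14 (113614 to 168942) were bright on every array and did not pass the test. Of the cartilage markers, Col2a1 (12 to 22) and Matn1 (7 to 11) were at the dim end throughout. Some wild-type arrays stood apart. Wild-type array 1 exceeded the other 5 arrays by at least 2 log2 units in 27 named probe sets, among them Sprr1b, Krt16, Rptn, Ccl2, Il1b and Gh. Wild-type array 3 did so in 9, among them the glucocorticoid-responsive Tsc22d3 (85957 against at most 14314) and Ddit4 (8502 against at most 1131), whereas the count was 4 for wild-type array 2, 1 for lncKO array 6 and 0 for lncKO arrays 4 and 5.

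In lncKO skin, 1215 probe sets rose and 1794 fell, 15.4% of those tested, or 6.21% higher and 9.17% lower. The median log2 fold change over all of them was −0.07. Most calls were moderate: 652 rose and 1116 fell by at least 1 log2 unit, 60 and 111 by at least 2, and 9 and 24 by at least 3. Of the 3009 calls, 2945 had all 3 lncKO arrays on one side of all 3 wild-type arrays, and 6159 probe sets (31.5%) had groups that did not overlap whether called or not. The excess of lower over higher calls depended on the scaling of the arrays, since quantile normalization gave 1539 higher and 1514 lower and median centring gave 1499 and 1458. Without lncKO array 4 the count was 1886. The counts given for gene lists below are to be read beside the 15.4% called over all probe sets.

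A stricter group is called stable here. Its 913 probe sets (4.66%), 347 higher (1.77%) and 566 lower (2.89%), passed the test, had groups that did not overlap, and stayed past the threshold in the same direction and within 1.5 times of the same log2 fold change under every alternative processing and every omission of an array that could test them. Groups that do not overlap are thus a condition of every stable call. For stable genes named below, that separation is a description and not further support.

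**Figure D1:**
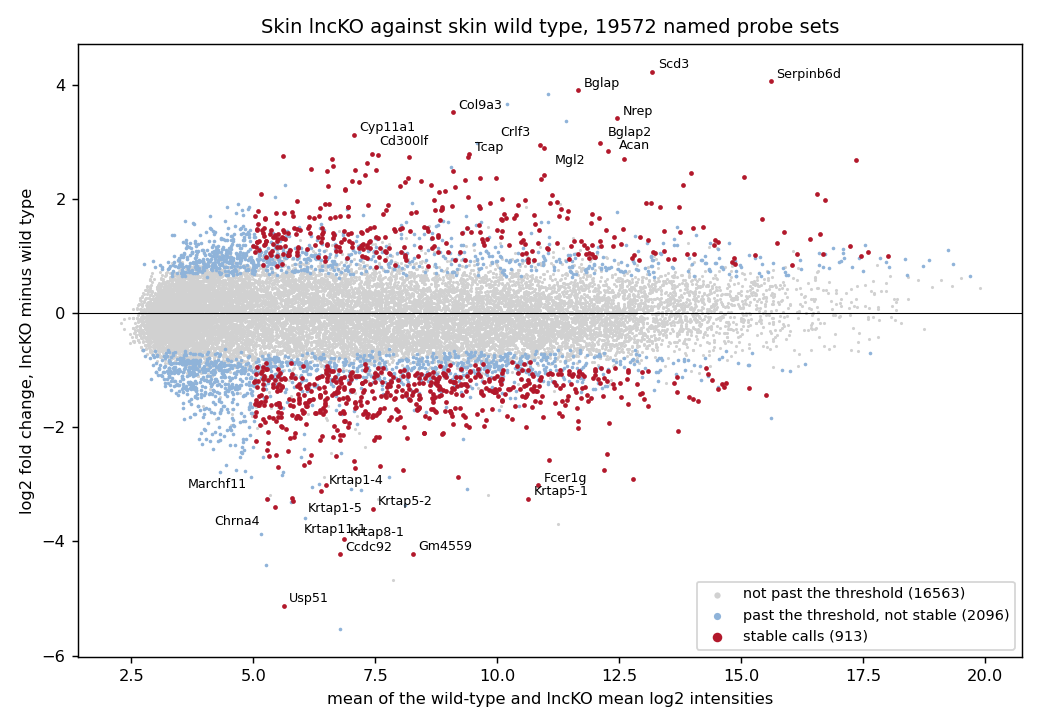
Each point is a named probe set, with the average of the wild-type and lncKO mean log2 intensities on the x axis and the log2 fold change of lncKO over wild type in skin on the y axis. Grey points did not pass the test, blue points passed it and red points are the 913 stable calls, with the 12 highest and 12 lowest of them named. Usp51 is the lowest of those named at −5.13 and Scd3 the highest at 4.23.

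The 12 highest stable calls included genes of lipid, bone, cartilage and steroid metabolism. Scd3, a stearoyl-CoA desaturase of the sebaceous gland, read 1367, 5836 and 1220 on the wild-type arrays and 74498, 44442 and 19617 on the lncKO arrays, a log2 fold change of 4.23 ± 0.74 (adjusted p = 0.00299). Serpinb6d, a clade B serpin and so an inhibitor of intracellular proteases, gave 19135, 6036 and 15797 in wild type and 237037, 173212 and 208556 in lncKO (4.07 ± 0.42, adjusted p = 0.000154). In both genes the lowest lncKO array lay above the highest wild-type array, and the lncKO arrays of Scd3 spread more widely than those of Serpinb6d. Scd3 has close relatives in the same gene cluster, so its reads on a hybridisation array are uncertain, and Scd1, the most abundant of them, read 487900 to 671356 in wild type and 879750 to 985469 in lncKO without passing the test (0.62 ± 0.22, adjusted p = 0.0716).

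Osteocalcin, the calcium-binding protein that osteoblasts secrete, is encoded by near-identical genes whose probe sets cannot be fully told apart. Bglap gave 590, 959 and 1014 in wild type and 13853, 11218 and 12477 in lncKO (3.91 ± 0.24, adjusted p = 5.55e-06), and Bglap2 read 1126, 1706 and 2004 against 14068, 11016 and 12363 (2.99 ± 0.24, adjusted p = 3.83e-05). The 3 arrays of each group lay close together and the groups were far apart. Col9a3, a chain of the type IX collagen of cartilage, gave 250, 163 and 101 in wild type and 1693, 2792 and 1338 in lncKO (3.53 ± 0.33, adjusted p = 8.81e-05). Acan, the aggrecan core protein of cartilage, read 1097, 3284 and 1763 against 9429, 18981 and 13184 (2.85 ± 0.37, adjusted p = 0.000518), and wild-type array 2 was the highest of its group without reaching any lncKO array.

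The remaining higher calls had varied functions. Nrep, a small protein first described in regenerating neurons, gave 1779, 2096 and 1370 in wild type and 24303, 21626 and 11857 in lncKO (3.42 ± 0.40, adjusted p = 0.000284). Cyp11a1, the cholesterol side-chain cleavage enzyme that opens steroid synthesis, read 65, 42 and 34 against 286, 499 and 439 (3.13 ± 0.28, adjusted p = 5.78e-05). Crlf3, a cytokine receptor-like factor, read 1015, 581 and 524 against 5270, 6862 and 3945 (2.95 ± 0.29, adjusted p = 0.000114). No lncKO array of these genes overlapped the wild-type group. Mgl2, a C-type lectin of macrophages and dermal dendritic cells, read 369, 1018 and 1038 against 4701, 7542 and 4582 (2.90 ± 0.38, adjusted p = 0.000528). Cd300lf, an inhibitory receptor of myeloid cells, read 128, 44 and 51 against 514, 453 and 411 (2.79 ± 0.35, adjusted p = 0.000486). Tcap, the titin cap of the sarcomere, read 219, 438 and 188 against 813, 4782 and 1537 (2.79 ± 0.56, adjusted p = 0.00625), with lncKO array 5 well above the other lncKO arrays.

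The 12 lowest stable calls held 6 keratin-associated proteins and 6 other genes, some of which read near the dim end in lncKO skin. Usp51, a deubiquitinase that acts on histone H2A, gave 267, 347 and 267 in wild type and 8, 9 and 8 in lncKO (−5.13 ± 0.21, adjusted p = 5.51e-08). Ccdc92, a coiled-coil protein of the centriole, read 497, 377 and 565 against 19, 34 and 25 (−4.23 ± 0.28, adjusted p = 7.71e-06). Chrna4, a subunit of the nicotinic acetylcholine receptor, read 150, 121 and 158 against 17, 12 and 12 (−3.40 ± 0.23, adjusted p = 1.02e-05). These genes were even within each group, and their lncKO arrays lay at or near the dim end, so the exact fold is uncertain while the groups do not overlap. Marchf11, a membrane-bound ubiquitin ligase, read 125, 117 and 120 against 15, 8 and 17 (−3.25 ± 0.27, adjusted p = 3.83e-05). Fcer1g, the signalling chain shared by receptors for IgE and IgG, read 6810, 4078 and 5106 against 576, 841 and 558 (−3.01 ± 0.31, adjusted p = 0.000154), well above the dim end in both groups. The predicted gene Gm4559 read 1988, 2620 and 457 against 48, 127 and 61 (−4.21 ± 0.54, adjusted p = 0.000486), with wild-type array 3 the lowest of its group.

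**Figure D2:**
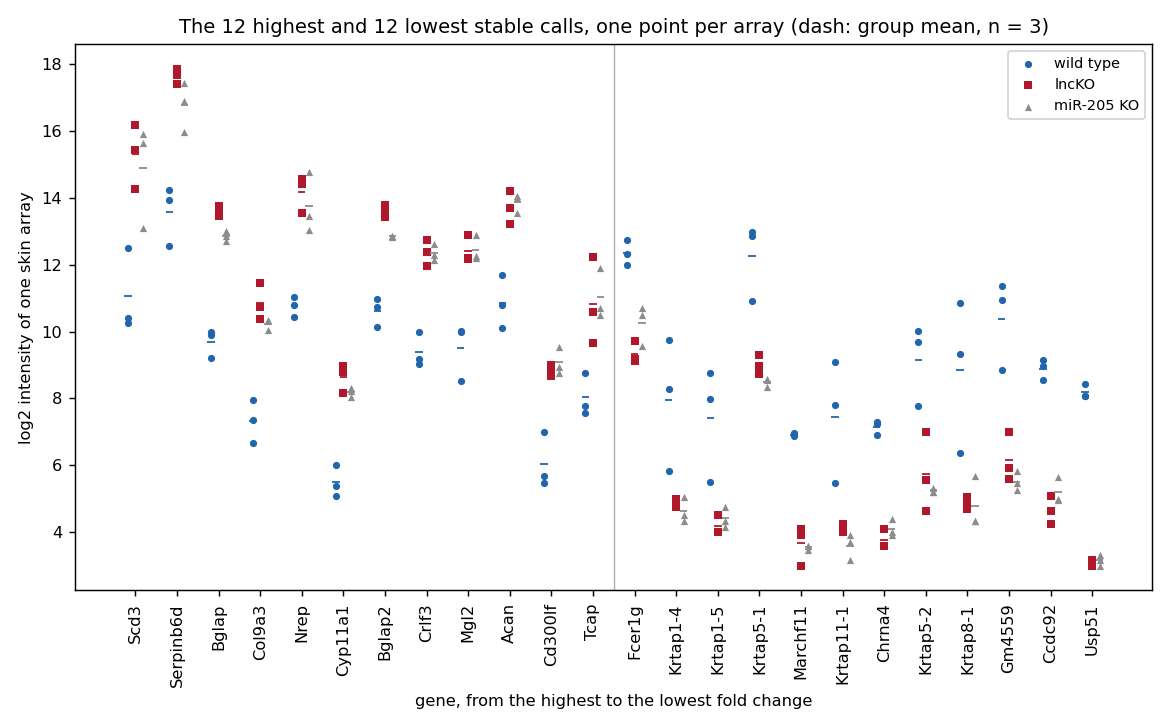
Log2 intensity on each of the 9 skin arrays for the 12 highest and 12 lowest stable calls, with circles for wild type, squares for lncKO, triangles for miR-205 KO and a dash for each group mean (n = 3). The lncKO arrays of each of the 24 genes lie apart from the wild-type arrays, which the choice of stable calls required, and Usp51 shows the widest gap among the lower genes.

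Keratin-associated proteins of the hair shaft were lower in lncKO skin. Of 50 keratin-associated proteins measured, 32 fell and 0 rose, against 9.17% lower and 6.21% higher over all probe sets, with a median log2 fold change of −2.28 and a range from −5.53 to 0.36. At an unadjusted p under 0.05, 42 were lower and 0 higher. Krtap3-2 and Krtap3-3 had the same value on every array, so the 50 are 49 distinct measurements and the 32 are 31, and other members are near-identical enough to share signal. In 27 of the 50 the lncKO and wild-type groups did not overlap with lncKO lower, and 12 were stable calls. Krtap5-1 gave 7417, 8128 and 1937 in wild type and 503, 634 and 426 in lncKO (−3.25 ± 0.43, adjusted p = 0.000581), and Krtap8-1 read 648, 1843 and 82 against 26, 33 and 30 (−3.96 ± 0.80, adjusted p = 0.00645). In both, wild-type array 3 was far below the other wild-type arrays and still above each lncKO array.

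That position of wild-type array 3 was general among these genes. It lay below the other wild-type arrays in 43 of the 50 and above the highest lncKO array in 28. The median intensity of the 50 was 239.5, 353.5 and 40.5 on the wild-type arrays and 20, 32.5 and 20.5 on the lncKO arrays. So wild-type arrays 1 and 2 were bright, and array 3 lay much nearer to the lncKO arrays. Without wild-type array 3, 43 members fell. With 20 after omission of wild-type array 2, 21 without lncKO array 4 and 20 without lncKO array 6, the count also moved the other way, and it was 16 with intensities floored at 16. In bulk tissue, fewer cells of a type and less RNA per cell cannot be told apart, here and below.

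Krtap7-1, a member of the high glycine-tyrosine class, had the lowest log2 fold change of the family. It gave 1503, 3460 and 79 in wild type and 11, 47 and 8 in lncKO (−5.53 ± 1.06, adjusted p = 0.00501), and with a variance trend and robust fit its adjusted p was 0.0504. Krtap11-1 read 224, 543 and 44 against 19, 19 and 16 (−3.29 ± 0.63, adjusted p = 0.00513), and Krtap1-5 read 255, 431 and 45 against 23, 16 and 16 (−3.24 ± 0.59, adjusted p = 0.00398). Krtap1-4 read 310, 866 and 57 against 27, 32 and 27 (−3.12 ± 0.67, adjusted p = 0.00939), and Krtap5-2 read 1037, 825 and 219 against 47, 128 and 25 (−3.43 ± 0.57, adjusted p = 0.00248). Every lncKO array of these genes lay below every wild-type array, and the lncKO values lay between 8 and 47 apart from Krtap5-2 on lncKO array 5, at 128. Krtap22-2 (−4.68, adjusted p = 0.067) and Krtap6-5 (−3.70, adjusted p = 0.122) did not pass the test.

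**Figure D3:**
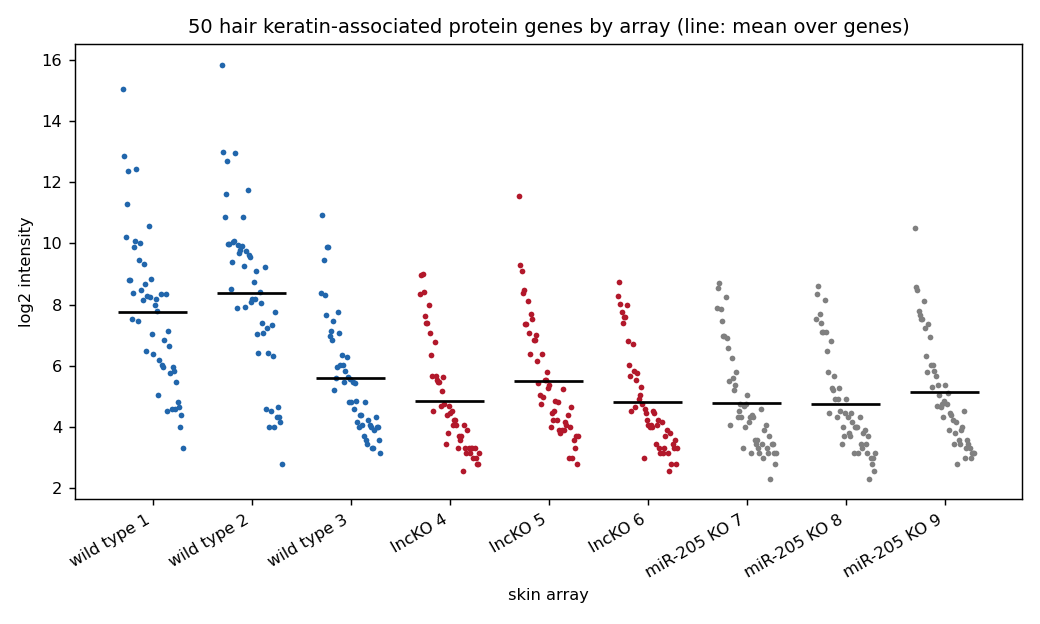
Log2 intensity of the 50 keratin-associated protein genes on the 9 skin arrays, a point per gene, with a line at the mean over genes. The mean was 7.75, 8.38 and 5.61 on the wild-type arrays and 4.85, 5.52 and 4.84 on the lncKO arrays, so wild-type array 3 lies between the other wild-type arrays and the lncKO arrays.

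A TATA box is a core promoter element found before many strongly expressed tissue genes. The letters TATAAA, searched on both strands in the 50 bases before the gene start, were present in 29 of the 46 keratin-associated genes with a RefSeq upstream sequence (63%), against 674 of 15745 named probe sets (4.28%). The upstream sequences also differed in base content, with a median share of G and C of 40.6% against 56%. The part of base content in the share with TATAAA was not tested. The motif begins at −29 in Krtap8-1, −28 in Krtap11-1 and −30 in Krtap5-1, counted from the start. Its share did not separate the members by their call, at 62.1% of those that fell and 64.7% of those that did not pass the test. The check is void for the 347 stable higher calls, of which 74.9% had a sequence, below the 80% taken as needed here.

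Other follicle genes gave fewer calls, but their probe sets were not equally bright. A mean log2 intensity of at least 6 was reached by 1 of 13 hair shaft keratins, against 33 of 50 keratin-associated proteins. Krt81, Krt83, Krt85 and Krt87 were not measured. Of the 13 hair shaft keratins 0 rose and 2 fell (median −0.77), which became 8 without wild-type array 3 (median −1.37) and 1 without any other one of the 6 arrays (median −0.39 without wild-type array 2). With all 18 arrays in the fit 5 fell, and 1 with a floor of 16. Of 11 inner root sheath and companion layer genes 0 rose and 2 fell (median −1.65), which became 8 without wild-type array 3, 1 without lncKO array 5 or 6, and 0 without wild-type array 1 or 2 or lncKO array 4 (median −0.88 without wild-type array 2). With all 18 arrays in the fit 1 of these rose and 7 fell, and 0 fell with a floor or pseudocount of 16. Krt39, a type I keratin of the hair shaft, gave 67, 108 and 29 in wild type and 11, 16 and 12 in lncKO (−2.21 ± 0.37, adjusted p = 0.0026). Tchh, the trichohyalin of the inner root sheath, read 3050, 2692 and 85 against 65, 179 and 55 (−3.36 ± 1.02, adjusted p = 0.0418), so wild-type array 3 lay within the lncKO range. Its call was lost without any other skin array (adjusted p 0.0538 to 0.143, with −2.47 without wild-type array 1 and −2.56 without wild-type array 2) and in a fit of only the groups compared, with a floor or pseudocount of 16 and in a robust fit, while without wild-type array 3 it was −5.06 (adjusted p = 6.93e-05). Among 12 regulators of the hair matrix 0 rose and 4 fell, but 2 without wild-type array 2 or lncKO array 4. Msx1, a homeobox factor of the matrix, was stable at 44, 54 and 68 against 24, 25 and 27 (−1.11 ± 0.22, adjusted p = 0.00609). Of 14 follicle stem cell genes 2 rose and 1 fell (21.4% called, against 15.4% over all probe sets), with 0 or 1 rising without any one array but lncKO array 5, and 0 falling without wild-type array 2 or lncKO array 4. Of 14 dermal papilla genes 1 rose and 3 fell, with 0 rising without wild-type array 3 or any lncKO array, 2 falling without wild-type array 3 or lncKO array 4 or 5, and 1 without lncKO array 6.

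In the interfollicular epidermis, calls went both ways and were spread over several functions. Of 11 basal keratinocyte genes 0 rose and 2 fell (18.2% called, against 15.4% over all probe sets), and 1 fell without wild-type array 2 or lncKO array 4 or 5 (median −0.14, and −0.27 to −0.05 with an array left out). Itga3, the laminin-binding integrin alpha 3, gave 572, 896 and 843 in wild type and 303, 265 and 328 in lncKO (−1.35 ± 0.24, adjusted p = 0.00343). Of 19 genes of spinous and granular cells 4 rose and 2 fell. After quantile normalization 2 rose, and 1 fell without wild-type array 1 or 2 or lncKO array 4 or 5. Tgm1, the transglutaminase that cross-links the cornified envelope, read 4324, 5276 and 4449 against 1676, 1460 and 2021 (−1.45 ± 0.22, adjusted p = 0.00152). Both genes were lower on each lncKO array than on any wild-type array. Krt77, a keratin of suprabasal and sweat duct cells, read 1090, 8505 and 1502 against 14508, 16264 and 16677 (2.71 ± 0.55, adjusted p = 0.0067), with wild-type array 2 well above its group. Krt8, a keratin of simple epithelia, read 36, 62 and 25 against 200, 266 and 191 (2.50 ± 0.30, adjusted p = 0.00032). Krt10, the main type I keratin of suprabasal cells, read 314730 to 355555 in wild type and 619688 to 678979 in lncKO (0.94 ± 0.20, adjusted p = 0.00832), a call that quantile normalization ended (0.45, adjusted p = 0.14).

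Among 34 precursors of the cornified envelope 3 rose and 9 fell (median −0.23). Omission of lncKO array 4, 5 or 6 left 5, 4 and 4 that fell and 1 that rose, omission of wild-type array 1 left 1 that rose, and 5 rose without wild-type array 3. The median was −0.06 without wild-type array 1, −0.15 without lncKO array 4 and −0.37 without lncKO array 6. Lce3c, a late cornified envelope protein, gave 3704, 934 and 1181 in wild type and 241, 180 and 238 in lncKO (−2.88 ± 0.40, adjusted p = 0.000855), and Lce3d read 463, 192 and 166 against 57, 57 and 71 (−1.9998 ± 0.40, adjusted p = 0.0064). In both, wild-type array 1 was the highest and the groups did not overlap. These genes have near-identical neighbours, so the single member is uncertain. Mt4, the metallothionein of stratified squamous epithelia, read 18743, 10090 and 9518 against 2069, 2105 and 1360 (−2.75 ± 0.31, adjusted p = 0.000258). Slurp2, a secreted Ly6 protein of keratinocytes, read 18271, 13753 and 28611 against 2424, 2676 and 2598 (−2.91 ± 0.37, adjusted p = 0.00047), and it was named after its values were seen.

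Desmosomes, the junctions that rivet keratinocytes together, had stable calls in both directions. Of 16 desmosome genes 3 rose and 5 fell, and 3 fell without any single one of wild-type arrays 1, 2 and 3 and lncKO arrays 4 and 5. Cdsn, the corneodesmosin that holds cornified cells together, gave 24463, 31949 and 25753 in wild type and 5047, 7547 and 7130 in lncKO (−2.07 ± 0.27, adjusted p = 0.000523). Jup, the plakoglobin of desmosomes and adherens junctions, read 30269, 51597 and 41972 against 13592, 16851 and 19432 (−1.29 ± 0.27, adjusted p = 0.00822). The cadherins Dsc2 and Dsg1a and the envoplakin Evpl were on the other side, and no other desmosome gene measured rose. Dsc2 read 162, 101 and 89 against 927, 632 and 749 (2.75 ± 0.41, adjusted p = 0.00134), Dsg1a read 96290, 94982 and 118282 against 297834, 182280 and 228737 (1.17 ± 0.23, adjusted p = 0.00551), and Evpl read 387, 697 and 425 against 1276, 1159 and 1504 (1.43 ± 0.25, adjusted p = 0.00329). The lncKO arrays of these 5 genes did not overlap the wild-type arrays.

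The proteases that cleave corneodesmosomes and the lipids of the barrier gave lower values. Of 25 kallikreins 0 rose and 8 fell (median −0.32, −0.19 without wild-type array 1 and −0.21 without lncKO array 4), a count that stayed at 8 whichever skin array was left out and was 5 with intensities floored at 16 or dim probe sets removed. Klk7, the chymotryptic enzyme of the stratum corneum, gave 77397, 81006 and 72280 in wild type and 32235, 24138 and 29325 in lncKO (−1.44 ± 0.20, adjusted p = 0.00096). Klk5, its tryptic activator, read 2370, 3530 and 3146 against 1001, 801 and 1099 (−1.63 ± 0.33, adjusted p = 0.00626). Klk8 and Klk11, further epidermal members, were stable as well, at −1.99 ± 0.30 (adjusted p = 0.00142) and −1.68 ± 0.24 (adjusted p = 0.000855). Of 20 genes of ceramide and barrier lipid synthesis 2 rose and 7 fell (median −0.27, −0.14 without wild-type array 3 and −0.46 without lncKO array 6). With an array left out, 3 fell without wild-type array 2 or 3 and 4 without lncKO array 4 or 5, and 4 rose without lncKO array 5 and 1 without any other of the 6. Cers3, the synthase of very long chain ceramides, read 1636, 1796 and 1548 against 596, 338 and 465 (−1.87 ± 0.24, adjusted p = 0.000552), and Elovl1, an elongase of long fatty acids, read 42311, 36825 and 42674 against 15993, 16381 and 19824 (−1.23 ± 0.23, adjusted p = 0.0043). The groups of each of these genes were apart.

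Clade B serpins, the family of Serpinb6d, had members on both sides. Of 26 measured 4 rose and 4 fell (30.8% called, against 15.4% over all probe sets), and each count was 2 without wild-type array 2 or lncKO array 4, as was the lower count without lncKO array 5 or 6. Serpinb12 gave 18128, 8553 and 13518 in wild type and 6543, 4073 and 4133 in lncKO (−1.42 ± 0.29, adjusted p = 0.00661). Serpinb8 read 3735, 4349 and 4024 against 1568, 835 and 1876 (−1.58 ± 0.28, adjusted p = 0.00315). Both are protease inhibitors found in epithelia, and their groups did not overlap.

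Sebaceous gland genes were higher. Of 19 measured 6 rose and 1 fell (median 0.62), and with an array left out 4 to 5 rose, and 0 fell without wild-type array 1 or 2 or lncKO array 4 or 6. The mean log2 intensity of the list was 12.21, 12.27 and 12.55 on the wild-type arrays and 12.91, 13.00 and 12.74 on the lncKO arrays. Beside Scd3, the stable calls were Mgst1, a microsomal glutathione transferase, at 129648, 117507 and 135278 against 249118, 278397 and 238568 (1.00 ± 0.20, adjusted p = 0.00585), and Cidea, a lipid droplet protein, at 20126, 20103 and 23431 against 48121, 45988 and 32773 (0.98 ± 0.22, adjusted p = 0.0122). The groups of both did not overlap. Of the defining markers, Awat2, a wax synthase (387 to 849 against 326 to 1244), and Mc5r, the melanocortin 5 receptor (73 to 1103 against 416 to 723), had overlapping groups and did not pass the test.

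Genes of cholesterol synthesis were lower. Of 19 measured 0 rose and 7 fell (median −0.73), with 5 to 9 falling when an array was left out, and the list's mean log2 intensity was 11.93, 12.19 and 12.12 in wild type and 11.35, 11.56 and 11.54 in lncKO. Fdft1, the squalene synthase, read 11073, 12712 and 13824 against 5969, 6722 and 5827 (−1.02 ± 0.21, adjusted p = 0.00716). Mvd, the mevalonate diphosphate decarboxylase, read 611, 873 and 593 against 218, 285 and 231 (−1.49 ± 0.24, adjusted p = 0.00185), and Nsdhl, a later sterol dehydrogenase, read 8577, 8405 and 11379 against 3902, 5107 and 4840 (−1.03 ± 0.22, adjusted p = 0.00801). Early and late steps of the pathway were thus both among the stable lower calls. Mvk, the mevalonate kinase (−1.49 ± 0.33, adjusted p = 0.0112), and Stard4, a sterol carrier (−1.38 ± 0.29, adjusted p = 0.00888), completed them.

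Steroid-metabolising enzymes besides Cyp11a1 were looked at after its value was seen. Akr1c18, which inactivates progesterone, gave 68944, 66451 and 60904 in wild type and 326148, 588982 and 396127 in lncKO (2.70 ± 0.24, adjusted p = 5.65e-05). Hsd3b3, a 3-beta-hydroxysteroid dehydrogenase, read 26, 26 and 83 against 240, 229 and 287 (2.71 ± 0.38, adjusted p = 0.000855), and Hsd17b2, which oxidises estradiol and testosterone, read 158, 150 and 183 against 710, 509 and 470 (1.76 ± 0.23, adjusted p = 0.000502). The lncKO arrays were above all wild-type arrays in each. The Akr1c and Hsd3b families hold near-identical members, so the single gene is uncertain. Star, the carrier that feeds cholesterol to Cyp11a1 (−0.03), Cyp17a1 (−1.11, adjusted p = 0.115) and Hsd11b1 (−0.31) did not pass the test.

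White fat genes were mostly higher in lncKO skin. Of 17 adipocyte genes 7 rose and 1 fell (median 0.85). Without wild-type array 1 or 3, or lncKO array 5 or 6, 4 rose. Lep, the hormone leptin, gave 245, 500 and 363 in wild type and 1646, 1938 and 1907 in lncKO (2.37 ± 0.40, adjusted p = 0.00255). Cidec, a lipid droplet protein of white fat, read 83, 653 and 334 against 1256, 1757 and 2438 (2.74 ± 0.56, adjusted p = 0.00679), and Plin4, a perilipin, read 217, 586 and 295 against 1192, 1205 and 1800 (2.04 ± 0.33, adjusted p = 0.00207). Wild-type array 1 was the lowest and array 2 the highest wild-type array in each, and no lncKO array overlapped them. Pck1, the cytosolic phosphoenolpyruvate carboxykinase, read 15, 35 and 52 against 152, 144 and 243 (2.54 ± 0.42, adjusted p = 0.00227). Cebpa, a transcription factor of adipocytes that keratinocytes also express, went the other way at 5697, 8971 and 5309 against 1651, 2030 and 1227 (−2.01 ± 0.27, adjusted p = 0.000695). Of the defining markers, Adipoq (1.17, adjusted p = 0.0549) and Plin1 (100 to 517 against 195 to 584) did not pass the test.

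Cartilage and bone matrix genes were higher as well. Of 22 cartilage genes 10 rose and 0 fell (median 0.75), and 6 rose without lncKO array 5. Beside Acan and Col9a3, Cnmd, the chondromodulin of cartilage, gave 10084, 11576 and 12124 in wild type and 30381, 47924 and 22366 in lncKO (1.51 ± 0.28, adjusted p = 0.00412). Matn3, a cartilage matrilin, read 8, 59 and 26 against 93, 131 and 110 (2.26 ± 0.51, adjusted p = 0.0116), and its fold change was 1.49 without wild-type array 1, the dimmest. The lncKO arrays of both genes lay above the wild-type arrays. Of 10 bone genes 4 rose and 1 fell (median 0.32, and 0.17 without wild-type array 2), and 2 rose with dim probe sets removed. The 1 that fell lost its call without any one array but wild-type array 1, and the stable calls were the osteocalcin genes. Of the defining cartilage markers, Snorc (60 to 148 against 94 to 219) and the dim Col2a1 and Matn1 did not pass the test.

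Skeletal muscle genes gave 9 that rose and 1 that fell of 29 (median 0.56), with 7 to 10 rising when an array was left out and 7 stable, and 2 falling without wild-type array 1 and 0 without wild-type array 2 or lncKO array 4 or 6. The median was 0.19 without lncKO array 5, 0.91 without lncKO array 4 and 0.86 without wild-type array 2. Ttn, the giant spring protein of the sarcomere, gave 602, 974 and 766 in wild type and 2564, 3231 and 3348 in lncKO (1.98 ± 0.24, adjusted p = 0.000393). Mb, the oxygen-binding myoglobin, read 6621, 8211 and 5333 against 30762, 51754 and 19634 (2.25 ± 0.32, adjusted p = 0.000918), and Myl1, a fast myosin light chain, read 58686, 54983 and 31407 against 155468, 323853 and 154101 (2.09 ± 0.37, adjusted p = 0.00316). For Mb and Myl1, lncKO array 5 was the highest of all, and the groups did not overlap. Actn3, an actinin of fast fibres, was stable at 1.88 ± 0.34 (adjusted p = 0.00383). The defining markers Acta1 (8074 to 17853 against 6872 to 22674) and Ckm (890 to 1248 against 925 to 2374) overlapped between the groups and did not pass the test.

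The mean levels of the fat, cartilage and muscle lists are given here because they bear on the samples' make-up. The mean log2 intensity of the adipocyte list was 9.40, 10.74 and 10.02 on the wild-type arrays and 10.55, 11.24 and 11.23 on the lncKO arrays. The cartilage list had 8.10, 8.75 and 8.52 against 9.18, 9.67 and 9.17, and the muscle list 9.92, 10.79 and 10.01 against 10.37, 11.73 and 10.85. Wild-type array 2 was the highest of the wild-type arrays and lncKO array 5 the highest of the lncKO arrays in each of the 3 lists. The cartilage list did not overlap between the genotypes, whereas in the adipocyte and muscle lists wild-type array 2 lay above lncKO array 4. How much of each tissue was in a sample, and its part in these and other results, was not tested.

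Dermal genes were mixed. Of 13 fibroblast genes 4 rose and 1 fell (median 0.41, 0.19 without lncKO array 5, 0.66 without wild-type array 2 and 0.65 without lncKO array 4), and 2 rose without any single one of wild-type arrays 1 and 2 and lncKO arrays 4 and 5, and the lower call was lost without any one array but wild-type array 3. Dpt, dermatopontin of the dermal matrix, gave 62305, 56651 and 44787 in wild type and 196990, 245284 and 202856 in lncKO (1.98 ± 0.21, adjusted p = 0.000179). Fap, a serine protease of activated fibroblasts, read 2263, 1865 and 3487 against 7859, 7571 and 7913 (1.67 ± 0.36, adjusted p = 0.00928). Col1a1, the main collagen chain of the dermis, read 5461 to 11768 against 9581 to 11557 and did not pass the test (0.26 ± 0.33). Of 20 collagen chains outside cartilage 3 rose and 1 fell, 20% against 15.4% over all probe sets (median 0.48, and 0.32 without lncKO array 5). Col8a1, a short-chain collagen, rose from 366, 765 and 589 to 1906, 2561 and 2197 (2.01 ± 0.27, adjusted p = 0.000596), Col15a1, of basement membrane zones, rose from 25, 25 and 22 to 63, 86 and 100 (1.77 ± 0.22, adjusted p = 0.000486), and Col6a2 fell from 5899, 4764 and 7739 to 1559, 3337 and 2125 (−1.43 ± 0.28, adjusted p = 0.00585). No array of one group lay within the other for the genes that passed. Of 43 matrix proteases and inhibitors 0 rose and 1 fell, 2.3% against 15.4% over all probe sets.

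In the vessel, nerve and pigment cell lists, shares called were at or below the 15.4% over all probe sets. Of 17 endothelial genes 1 rose and 1 fell: Cldn5, the claudin of endothelial tight junctions, gave 63, 95 and 51 in wild type and 349, 540 and 254 in lncKO (2.43 ± 0.30, adjusted p = 0.000396), whereas Robo4, an endothelial guidance receptor, read 48, 51 and 56 against 27, 27 and 31 (−0.87 ± 0.20, adjusted p = 0.0118). Cdh5, the defining cadherin of endothelium, read 606 to 819 against 674 to 972 and did not pass the test. Of 9 smooth muscle genes Myh11, the smooth muscle myosin, rose from 52, 41 and 61 to 136, 132 and 163 (1.497 ± 0.26, adjusted p = 0.00313). Of 13 Schwann cell and myelin genes 0 rose and 1 fell, a call that ended without any one of the 6 arrays. By limma, 0 of 15 melanocyte genes passed (2 higher and 0 lower at an unadjusted p under 0.05), and 0 of 7 pericyte genes passed (0 higher and 1 lower). Without wild-type array 3, 2 melanocyte genes rose, 1 pericyte gene fell, and 2 endothelial genes rose and 2 fell, and without lncKO array 5 1 melanocyte gene rose.

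Immune cell lists lay around the 15.4% called over all probe sets, at 21.4% of 14 macrophage, 16.7% of 12 T and innate lymphoid, 15.8% of 38 chemokine, 15.4% of 13 Langerhans and dendritic, 14.3% of 7 B cell and 12.5% of 32 interferon-stimulated genes. Of the macrophage genes 1 rose and 2 fell (2 rose without wild-type array 1, 1 fell without it and 0 without lncKO array 4 or 6), and Adgre1, the F4/80 antigen (397 to 484 against 269 to 375), did not pass the test. Of the Langerhans and dendritic cell genes 0 rose and 2 fell, 1 falling without wild-type array 3 or lncKO array 5 or 6 and 1 rising without wild-type array 2 or 3. H2-Aa, an MHC class II chain, gave 20445, 27895 and 37870 in wild type and 9335, 12557 and 8087 in lncKO (−1.50 ± 0.29, adjusted p = 0.005), while Cd207, the langerin that defines Langerhans cells, read 58, 66 and 129 against 193, 154 and 147 and did not pass the test (1.05 ± 0.40, adjusted p = 0.0961). Among the chemokines 3 rose and 3 fell, and 5 did each without wild-type array 1. Ccl27a, a chemokine of keratinocytes that attracts T cells, read 422, 344 and 233 against 100, 95 and 89 (−1.77 ± 0.24, adjusted p = 0.000635). Ccl8, a monocyte chemokine of dermal macrophages, read 1185, 1158 and 632 against 2745, 4328 and 2674 (1.73 ± 0.28, adjusted p = 0.00219). The groups of H2-Aa, Ccl27a and Ccl8 did not overlap. Of the interferon-stimulated genes 1 rose and 3 fell, with 1 falling without wild-type array 3 or lncKO array 4 and 2 rising without wild-type array 1, and the one that rose was Bst2, tetherin, at 190, 171 and 121 against 427, 476 and 432 (1.49 ± 0.23, adjusted p = 0.00159). By limma, 0 of 17 neutrophil and acute inflammation genes passed (0 higher and 1 lower at an unadjusted p under 0.05), and 3 rose without wild-type array 1.

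Immediate early genes, which stimuli and tissue handling induce within minutes, were lower. Of 33 measured 0 rose and 8 fell (median −0.56), and the count was 4 without wild-type array 2 and 5 without any one of the lncKO arrays, with a median of −0.37 without lncKO array 4. Zfp36, an RNA-binding protein that destabilises cytokine transcripts, gave 603, 503 and 716 in wild type and 108, 151 and 144 in lncKO (−2.18 ± 0.40, adjusted p = 0.00398). Rhob, a small GTPase, read 324, 487 and 722 against 99, 151 and 171 (−1.83 ± 0.32, adjusted p = 0.00316), Btg2, an antiproliferative factor, read 1674, 1398 and 2159 against 663, 623 and 607 (−1.44 ± 0.28, adjusted p = 0.00515), and Dusp5, a phosphatase of ERK, read 739, 633 and 709 against 220, 286 and 371 (−1.28 ± 0.23, adjusted p = 0.00348). Each lncKO array was below each wild-type array in these 4 genes. The list's mean log2 intensity was 9.50, 9.19 and 9.14 in wild type and 8.42, 8.80 and 8.89 in lncKO. Of 14 glucocorticoid-responsive genes 0 rose and 2 fell (14.3% called, against 15.4% over all probe sets), 5 falling without wild-type array 1 and 1 without wild-type array 3 or lncKO array 5 or 6, and the median ran from −1.36 without wild-type array 1 to 0.15 without wild-type array 3. The mean of that list was 10.51, 11.27 and 13.29 against 11.18, 11.04 and 10.96, so wild-type array 3 stood above the rest. Mt2, a metallothionein that metals and glucocorticoids induce, read 76208, 45906 and 243501 against 36265, 22072 and 23590 (−1.83 ± 0.51, adjusted p = 0.0288). Its call was lost without wild-type array 3 (−1.15, adjusted p = 0.075) and without lncKO array 5 (adjusted p = 0.0901) or 6 (adjusted p = 0.082), and with a floor or pseudocount of 16 or a robust fit. The time and handling of each sample were not tested.

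The housekeeping lists given here were near or below the 15.4% called over all probe sets. The share called was 15.3% of respiratory chain and 9.8% of cytosolic ribosomal genes. It was 9.4% of cell cycle and 10% of hypoxia and glycolysis genes. Of 98 respiratory chain genes 4 rose and 11 fell (median 0.01), and leaving out an array gave counts as low as 1 higher, without wild-type array 3 or lncKO array 5, and 5 lower, without lncKO array 4. Ndufaf3, a complex I assembly factor, gave 299, 209 and 176 in wild type and 51, 61 and 71 in lncKO (−1.88 ± 0.24, adjusted p = 0.000538), and Cox8a, a cytochrome oxidase subunit, read 21304, 19356 and 23794 against 7507, 8998 and 8163 (−1.38 ± 0.24, adjusted p = 0.00272). These single members were well apart between the groups while the list's median was near 0. Of 61 cytosolic ribosomal proteins 1 rose and 5 fell, and 12 fell without lncKO array 5, 1 without lncKO array 4 and 2 without wild-type array 1 or lncKO array 6. The lower count of these also depended on the scaling, at 13 after quantile normalization and 4 after median centring. Of 32 cell cycle genes 2 rose and 1 fell, with 0 rising without wild-type array 2 or 3 or lncKO array 5 or 6, and 3 falling without wild-type array 3 and 2 without lncKO array 6. The 1 that fell was Mcm2, a subunit of the replicative helicase, at 263, 386 and 249 against 67, 79 and 124 (−1.76 ± 0.30, adjusted p = 0.00296). Of 20 hypoxia and glycolysis genes 0 rose and 2 fell, 1 falling without wild-type array 2 or 3 or any lncKO array and 2 rising without wild-type array 3 and 1 without lncKO array 6. Pgam1, a phosphoglycerate mutase, was a stable call (−1.51 ± 0.31, adjusted p = 0.00759).

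Olfactory and vomeronasal receptors, most of which were dim here, gave a view of the dim end. Of 1091 olfactory receptors, 741 had both group means at or below an intensity of 16, and 32 rose and 37 fell, with 0 stable calls and 0 calls once dim probe sets were filtered out. The balance turned over with the scaling, at 48 higher and 30 lower after quantile normalization and 45 and 23 after median centring, and without lncKO array 4, 5 or 6 each count was between 17 and 22. Of 321 vomeronasal receptors 17 rose and 22 fell, also with 0 stable calls, and 7 rose without wild-type array 2, 9 without lncKO array 4 or 6, and 11 fell without lncKO array 5 and 14 without wild-type array 1. Hox genes, which mark position along the body, gave 6 that rose and 1 that fell of 35 (20% called, against 15.4% over all probe sets), 22 of which were as dim, and 2 or 3 rose without wild-type array 1 or 3 or lncKO array 4 or 5. The stable ones were Hoxa2, which patterns the outer ear, at 471, 843 and 250 against 1070, 1621 and 1424 (1.55 ± 0.35, adjusted p = 0.0123), and Hoxb7 at 30, 35 and 36 against 61, 60 and 58 (0.83 ± 0.20, adjusted p = 0.0147). Both were higher on each lncKO array than on any wild-type array.

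**Figure D4:**
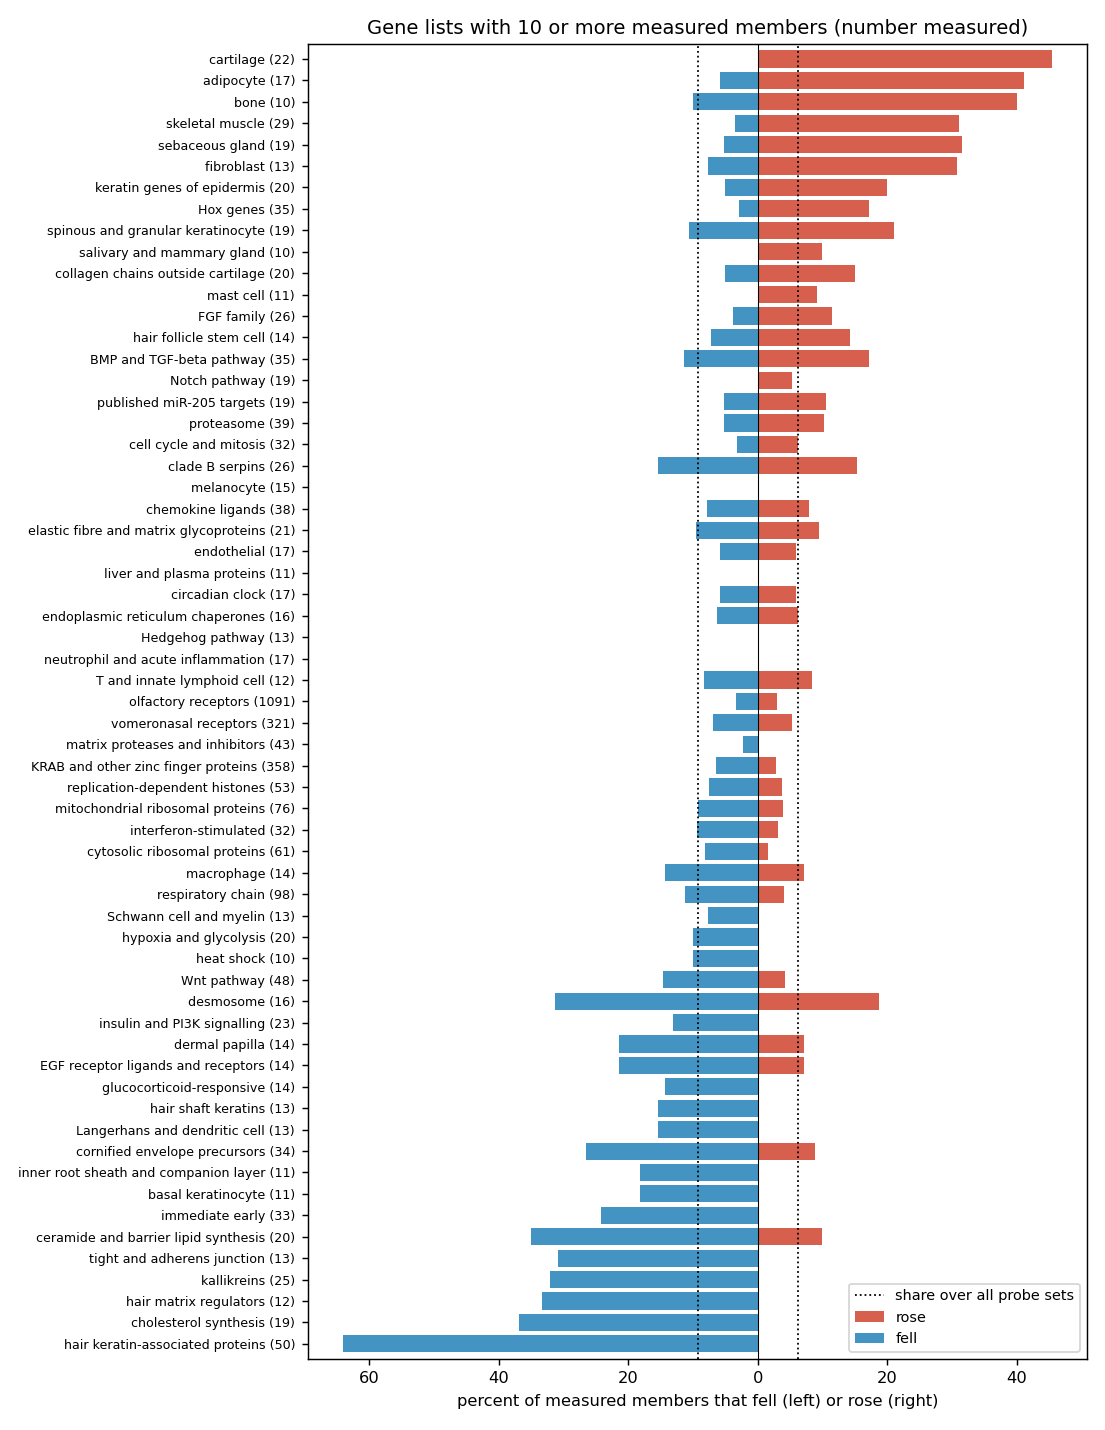
Share of each gene list with at least 10 measured members that fell (bars to the left) or rose (bars to the right) in lncKO skin, in percent, with dotted lines at the shares over all named probe sets, 9.17% lower and 6.21% higher. Keratin-associated proteins extend farthest to the left, and cartilage, sebaceous gland, adipocyte, bone and skeletal muscle genes extend to the right.

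Among signalling pathways, the Wnt list gave 2 genes that rose and 7 that fell of 48 (18.8% called, against 15.4% over all probe sets), with 4 falling without wild-type array 2 and 1 rising without lncKO array 5 or 6. By role, the ligands Wnt2b, at 57, 56 and 57 in wild type and 31, 17 and 26 in lncKO (−1.24 ± 0.26, adjusted p = 0.00856), and Wnt7b, at 31, 46 and 35 against 72, 71 and 83 (1.03 ± 0.22, adjusted p = 0.00852), went opposite ways. The Frizzled receptors Fzd7, at 3313, 3703 and 1963 against 852, 1303 and 1267 (−1.37 ± 0.28, adjusted p = 0.00742), and Fzd6 (−1.06 ± 0.22, adjusted p = 0.00724) fell. Axin2, a feedback inhibitor and common readout of the pathway, read 509, 769 and 575 against 203, 267 and 343 (−1.20 ± 0.27, adjusted p = 0.0116). The groups of these genes did not overlap. Of 35 BMP and TGF-beta genes 6 rose and 4 fell. There were 2 or 3 rising without wild-type array 1 or lncKO array 4, 5 or 6, 7 falling without wild-type array 1 and 2 without wild-type array 2, and 10 rising after quantile normalization or median centring. There the ligand Bmp3 read 136, 122 and 202 against 55, 56 and 46 (−1.52 ± 0.23, adjusted p = 0.00144), the antagonist Grem1 read 235, 627 and 429 against 1062, 1594 and 840 (1.497 ± 0.34, adjusted p = 0.0117), and the signal transducer Smad1 read 1858, 2249 and 2058 against 1036, 988 and 1076 (−0.99 ± 0.20, adjusted p = 0.00682). By limma, 0 of 13 Hedgehog genes passed (1 higher and 2 lower at an unadjusted p under 0.05).

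Growth factor receptors had members on both sides. Of 14 EGF receptor family genes 1 rose and 3 fell (28.6% called, against 15.4% over all probe sets), and 0 rose without lncKO array 6. Egfr gave 287, 359 and 370 in wild type and 95, 89 and 112 in lncKO (−1.78 ± 0.21, adjusted p = 0.000284), and Erbb2, its partner receptor, read 962, 1115 and 869 against 353, 406 and 493 (−1.24 ± 0.22, adjusted p = 0.00303). Of 23 insulin and PI3K genes 0 rose and 3 fell (median −0.43), so 13% were called against 15.4% over all probe sets, and 6 fell with all 18 arrays in the fit and 5 with a pseudocount of 16. Insr, the insulin receptor, read 4172, 5066 and 4970 against 2008, 2219 and 2395 (−1.10 ± 0.21, adjusted p = 0.00514), and Phlpp2, a phosphatase that removes an activating phosphate from AKT, read 123, 154 and 147 against 71, 63 and 75 (−1.02 ± 0.21, adjusted p = 0.00819). In each of these 4 receptors and regulators the wild-type arrays were even and all above the lncKO arrays. Of 26 FGF family genes 3 rose and 1 fell, at 15.4% no more than over all probe sets. There was 1 rising without wild-type array 1 or 3 or lncKO array 6, and the receptor Fgfr3 was among those that rose (1.20) and lost its call without any one of those arrays or lncKO array 5. The ligand Fgf9 was stable at 69, 112 and 85 against 133, 254 and 219 (1.16 ± 0.27, adjusted p = 0.013).

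Among 19 genes published as miR-205 targets 2 rose and 1 fell (median 0.22), 15.8% against the 15.4% over all probe sets, with 0 stable calls. The higher count was 3 without wild-type array 1 or lncKO array 4 and 1 without lncKO array 6, and 0 fell without wild-type array 1 or 2 or any lncKO array. Prkce, a protein kinase C isoform, gave 153, 118 and 101 in wild type and 216, 261 and 314 in lncKO (1.09 ± 0.26, adjusted p = 0.0147), and without lncKO array 6 its adjusted p was 0.0583. Zeb1, a repressor of epithelial genes, did not pass the test (−0.15). Of the 10 measured genes nearest to Mir205 in chromosome order, 5 on each side, 1 rose and 0 fell (median 0.03), and of the 55 measured among the 50 nearest on each side 2 rose and 0 fell (median 0.01), again with 0 stable calls, where the measured genes after Mir205 end early with the chromosome. The nearest gene that rose was G0s2, an inhibitor of fat cell lipase, at 671, 630 and 266 against 1026, 1940 and 708 (1.22 ± 0.39, adjusted p = 0.0493). It lost its call without wild-type array 3 (0.79, adjusted p = 0.162), lncKO array 5 (0.82, adjusted p = 0.170), lncKO array 4 (adjusted p = 0.0948) or wild-type array 2 (adjusted p = 0.0547), and under other alternatives. Lamb3, a chain of laminin 332 beside the locus (−0.14), and Cd34, a marker of follicle stem cells (0.21), did not pass the test.

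The miR-205 KO skin was set beside lncKO skin to ask where the 2 knockouts differ. Both are compared with the same wild-type arrays, so their fold changes are not independent, and only the direct contrast tests a difference. That contrast called 0 probe sets by limma (0%, lowest adjusted p 0.290), with 637 (3.25%) at an unadjusted p under 0.05, and the count was 1 without wild-type array 3 or lncKO array 4. Against wild type, miR-205 KO skin had 3293 calls (16.8%), 1328 higher (6.79%) and 1965 lower (10%). Over the 913 stable calls the median absolute log2 difference between the knockouts was 0.18 and the largest 1.65, beside 1.37 for lncKO and 1.31 for miR-205 KO against wild type. Each of the 24 genes with the extreme fold changes also passed the test in miR-205 KO skin. The stable calls and these 24 genes were chosen for their fold changes against the same wild-type arrays. Their medians and passing here were thus largely fixed by the choice and are given as a description only. Usp51 read 9, 10 and 8 there, Cdsn 4407, 7371 and 7864, and Egfr 99, 106 and 95, within or close to the lncKO range. Others read farther away without a call, such as Hsd3b3 at 119, 106 and 163 (1.73 over wild type, against 2.71 in lncKO), Pcyox1, a lysosomal prenylcysteine oxidase, at 4231, 3744 and 3258 (−0.73 against −1.89), and Ccl8 at 6108, 7309 and 5914 (2.75 against 1.73). With a median standard error of 0.26 and 3 arrays a group, the lack of calls does not show that the knockouts act alike.

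In pituitary the same genotype contrast gave far fewer calls. There 67 probe sets rose (0.342%) and 70 fell (0.358%), 0.7% of those tested, from arrays that the skin comparison does not use. The difference between the effects itself, skin minus pituitary, passed for 1811 probe sets (9.25%), 660 higher (3.37%) and 1151 lower (5.88%), over all those tested. The stable skin calls and the 24 extreme genes were chosen for their fold changes on the same skin arrays, so their passing this test (685 of 913, 75%, and 24 of 24) was largely fixed by the choice and is given as a description only. On the pituitary arrays, which the choice did not use, 0 of the 24 was called by limma, with a lowest adjusted p of 0.0711 and a largest absolute log2 fold change of 0.83. At the 0.7% called there over all probe sets, 0 of 24 is near the background. It does not show that the effect on these genes is absent in pituitary, and their levels there are not given here. The tissues also differed in Y-linked transcripts although every mouse was labelled female. Uty, for example, had a mean log2 intensity of 10.98 in wild-type and 10.99 in lncKO pituitary and at most an intensity of 13 on a skin array. Eif2s3y was not level between the pituitary genotypes, at 10.62 in wild type and 9.54 in lncKO. Of 5 Y-linked genes measured, 1 was called lower in lncKO pituitary. The part of Y-linked signal in the tissue difference and in the pituitary contrast was not tested. Without wild-type array 12 the pituitary count was 11.

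The genes called in both tissues were 31. They are 1.03% of the skin calls, against 0.7% of all probe sets called in pituitary. They are 22.6% of the pituitary calls, against 15.4% of all probe sets called in skin. Whether the overlap exceeds these shares was not tested, and 16 of the 31 had the same direction and 15 opposite directions. Those with stable skin calls were 10. Tuba4a, an alpha tubulin, read 5019, 5022 and 5643 in wild-type skin and 766, 1004 and 896 in lncKO skin (−2.56 ± 0.22, adjusted p = 4.27e-05) and was −1.38 in pituitary (adjusted p = 0.0131). Pcyox1 (−1.89 in skin, −1.43 in pituitary), Slc38a6, an orphan amino acid transporter (−1.80, −2.41), Vps37b, an ESCRT-I subunit (−1.75, −1.93), Asic1, an acid-sensing channel (−1.59, −1.45), and Fzd6 (−1.06, −1.49) were lower in both. Deptor, an inhibitor of mTOR, was the 1 higher in both, at 758, 1974 and 1628 against 4747, 3546 and 6393 in skin (1.82 ± 0.35, adjusted p = 0.00502) and 1.37 in pituitary. The rest pointed opposite ways. Lamb2, a laminin chain, was −1.30 in skin and 1.44 in pituitary, Adtrp, a hydrolase of fatty acid esters, 1.25 and −1.86, and Tmem45a, a membrane protein of cornifying cells, 1.04 and −1.09.

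**Figure D5:**
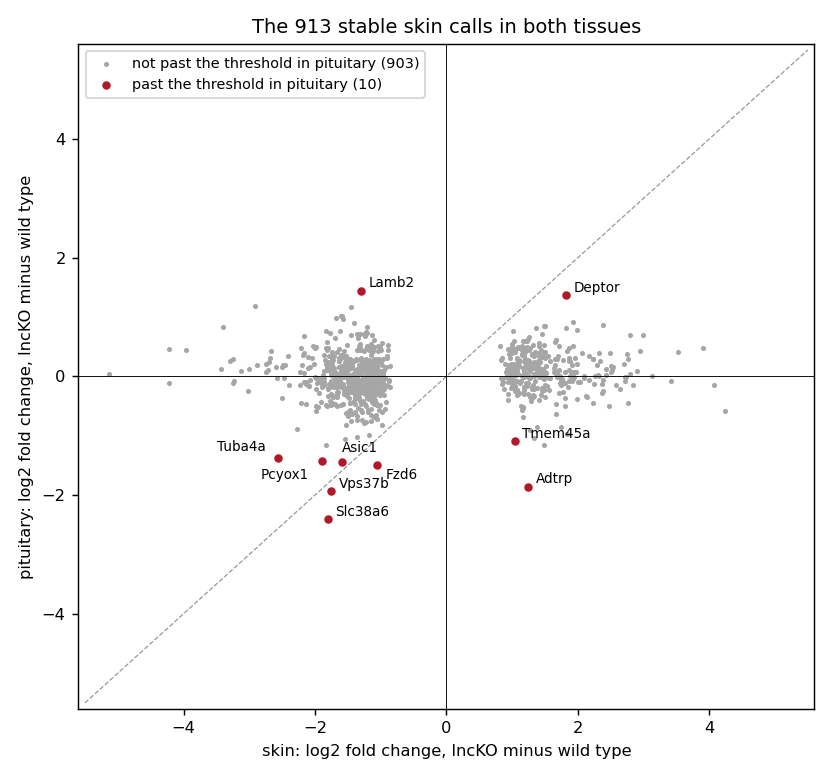
Log2 fold change of lncKO over wild type in skin (x axis) and in pituitary (y axis) for the 913 stable skin calls, with the 10 that also passed the test in pituitary in red and named, and a dashed line where both would be equal. Most points lie near 0 on the pituitary axis, and Slc38a6 is the lowest of the red points there at −2.41.

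Finally, transcripts of other organs were measured in skin. Of 9 major urinary proteins, near-identical carriers of pheromones that liver secretes, 6 rose and 0 fell (median 1.77), with 3 rising without lncKO array 5 or 6, 2 with a variance trend and robust fit, and 0 stable calls. Mup2 gave 406, 1670 and 52 in wild type and 2057, 6788 and 5271 in lncKO (3.68 ± 0.91, adjusted p = 0.017), and its adjusted p was 0.0656 without lncKO array 5, 0.0553 without lncKO array 6, 0.0531 with a floor of 16 and 0.1 in a robust fit. Without wild-type array 3 its fold change was 2.35. The liver markers Alb (40 to 159 against 82 to 98) and Apoa1 (8 to 9 against 6 to 10) did not pass the test. Gh, growth hormone, read 2501, 29 and 76 against 9, 9 and 7 (−4.42 ± 1.11, adjusted p = 0.0185), and without wild-type array 1 it was −2.504 (adjusted p = 0.00215). It did not pass after omission of a lncKO array (adjusted p 0.0522 to 0.0558), in a fit of only the groups compared, with a floor or pseudocount of 16 and in a robust fit. Prl, prolactin, was also highest on wild-type array 1, at 72, 20 and 14 against 10, 10 and 13, and did not pass the test (−1.32 ± 0.47, adjusted p = 0.0745).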

How the data were processed

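RNA of mouse skin and pituitary was hybridised to 18 Affymetrix Clariom S arrays. The authors deposited a table of intensity values on a linear scale for 22206 probe sets. How these were background-corrected, summarised and normalized is not given in the sources used here. Platform annotation named 19572 probe sets with 1 symbol (2634 with none, 0 with several), 19505 genes, with symbols updated through gene identifiers for all 19572. Intensities were taken to log2 and fitted with limma 3.58.1 in R 4.3.3 (lmFit, eBayes) on the 9 skin arrays, 1 term per group, with 6 residual degrees of freedom and Benjamini-Hochberg adjustment (threshold 0.05). Pituitary was fitted likewise, and the difference between tissues on all 18 arrays. A gene with several probe sets was counted in lists by its brightest. Named were the 12 highest and 12 lowest stable calls with a mean log2 of at least 6 in the higher group, up to 5 members of each list by smallest p, stable calls first, up to 4 bright members that did not pass, and fixed markers. The members and lists were chosen with earlier results of these data known. The code was tested on simulated data. The number of arrays limits the precision. Upstream sequences were matched by symbol, and RefSeq order (GRCm38.p6) gave the neighbours. Alternatives were scaling, a floor or pseudocount of 16, filters, other samples in the fit, and omission of each array.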

Additional observations from a re-analysis of the deposited data

Results flagged for a closer look

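The lncKO effect in skin differed from that in pituitary, by limma's test of the difference over all 18 arrays, for 1811 probe sets and for each gene listed here. Most of these genes were chosen for their skin fold changes on the same arrays, so their passing was largely fixed by that choice. Values are the skin log2 fold change minus the pituitary one. Among the extreme higher skin genes the difference was 4.82 for Scd3, 4.20 for Serpinb6d, 3.44 for Bglap, 3.11 for Col9a3, 3.50 for Nrep, 3.13 for Cyp11a1, 2.28 for Bglap2, 2.52 for Crlf3, 2.80 for Mgl2, 2.99 for Acan, 2.10 for Cd300lf and 2.74 for Tcap.

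Among the extreme lower skin genes it was −5.17 for Usp51, −4.11 for Ccdc92, −4.68 for Gm4559, −4.23 for Chrna4, −3.14 for Marchf11 and −2.76 for Fcer1g. For keratin-associated proteins it was −4.42 for Krtap8-1, −3.56 for Krtap5-2, −3.54 for Krtap11-1, −3.53 for Krtap5-1, −3.16 for Krtap1-5, −3.21 for Krtap1-4 and −5.32 for Krtap7-1. For other genes it was 1.35 for Scd1, 3.71 for Mup2 and −4.48 for Gh. For the genes called in both tissues in opposite directions it was −2.74 for Lamb2, 3.11 for Adtrp and 2.14 for Tmem45a.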

How the results depend on the processing

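The alternatives were chosen with earlier results of these data known. For lncKO against wild type in skin, other scalings, filters and sample sets gave counts within 1.5 times of the reported 3009, from 2009 of 11492 probe sets with dim ones removed to 4404 with all 18 arrays in the fit, and omission of 1 array gave 1886 to 2835. The contrast of lncKO with miR-205 KO skin called 0, 6 with all 18 arrays, and 0 to 1 with an array omitted. In pituitary the count of 137 became 59 with only the groups compared, 314 with dim probe sets removed and 307 with a variance trend and robust fit, and 11 to 123 with an array omitted. The cause was not tested. The difference between tissues ran from 1174 to 1847 with an array omitted, beside 1811. Of 9754 values of 547 named genes under alternatives, 9142 kept their direction and side of the threshold, 478 lost it, 133 gained it and 1 turned over: Krt16, −0.48 as reported and −1.45 to 1.39 with an array omitted, the latter without wild-type array 1, which read far above the other 5. Of 1260 counts of 70 lists, 957 stayed within 1.5 times. No paired analysis was possible because the sample numbers are serial and the labels do not tell which samples, if any, came from the same mouse. The test of the difference between tissues treated all arrays as independent. Signals at or below 16 limit the folds of dim genes.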

Other observations

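Over all named probe sets, brighter genes were called more often in lncKO skin: 17.2% of 11399 with a mean log2 intensity of at least 6 passed the test, against 12.8% of 8173 below it. Within the genotypes, the correlation of log2 intensity across genes, which are not independent replicates, was 0.983 to 0.987 between wild-type arrays and 0.986 to 0.991 between lncKO arrays. Between a wild-type and a lncKO array it was 0.970 to 0.978. The 100 brightest probe sets held 36.6% to 38.1% of the summed intensity on the wild-type arrays and 41.2% to 43.3% on the lncKO arrays. Of 53 replication-dependent histones 2 rose and 4 fell, with H2bc21 at 1.40 and H2bc7 at −1.53 as stable calls. H2bc21 gave 35, 48 and 28 in wild type and 80, 121 and 89 in lncKO, and H2bc7 gave 6377, 3636 and 3628 against 1357, 2340 and 1096. The lower count of this list was 1 without lncKO array 6, 2 without wild-type array 1 or lncKO array 4, 8 without wild-type array 2 and 10 without lncKO array 5.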
